A study of Homo sapiens with 2 samples.

Results

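The genes described here are the 7 insulin-like growth factor (IGF) binding proteins IGFBP1 to IGFBP7, the receptors IGF1R and IGF2R, and the receptor substrate IRS2. The probe sets were taken by name, as all those annotated to exactly 1 gene that is among these 10 symbols. This gave 26 probe sets for all 10 genes, out of 19775 genes on the array. They were measured in A549 cells, a human lung adenocarcinoma line, infected with the lentiviral vector LV5 carrying full-length ZNF300, a zinc finger protein of the KRAB family (A549-ZNF300), or with the LV5 control vector carrying a random DNA sequence (A549-LV5). Both vectors also carried green fluorescent protein and puromycin resistance, so the control shares infection and selection with the overexpressing cells. Each condition had 1 Affymetrix U133 Plus 2.0 array, which makes 2 arrays in all. No difference therefore has a replicate check, precision is limited by the number of arrays, and p-values are left out. Whether either culture was a clone or a pool is not given in the sources used here.

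IGFs are secreted peptides that drive growth and survival through the tyrosine kinase IGF1R, which recruits the adaptors IRS1 and IRS2 and activates the PI3K-AKT and ERK pathways. The IGF-binding proteins hold IGFs outside the cell, prolong their life and keep them from the receptor until a protease cuts the binding protein. IGF2R carries IGF2 to the lysosome and has no kinase, so it lowers the amount of this ligand. In lung tumours, IGF signalling is known for its part in survival under chemotherapy, and IGFBP7 is a secreted relative that binds IGFs weakly.

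All values per array are the deposited log2 signals, and every difference is that of A549-ZNF300 minus A549-LV5 on the log2 scale. A probe set was called detected where its signal reached the array median (6.03 in A549-ZNF300, 6.14 in A549-LV5) on 1 array or both. Each gene was represented by its detected probe set with the highest mean signal. ZNF300 itself had 8.91 in A549-ZNF300 and 4.16 in A549-LV5, where it lay below the array median, so the labels hold for the overexpressed gene. The 9 spiked hybridization controls differed by -0.16 to 0.03. Of the 14 detected markers of A549 epithelial cells, 11 were higher in A549-ZNF300 by 2-fold or more and none lower by as much. The shares among all 13221 detected genes were 13.6% and 15.4%. In A549-LV5, 4 of the 14 markers lay below the array median. Once any signal under the median of its array was set to that median, 10 markers were still higher by 2-fold or more. The share of all detected genes was then 10.3%. The summed linear signal of the 14 markers was 257365 in A549-ZNF300 and 110009 in A549-LV5. The marker differences ran from -0.16 for TXNRD1 to 11.41 for ALDH3A1, the largest of all detected genes. CDH1 had 9.74 and KRT19 had 8.79. Against the median of A549-LV5, where they were dim, ALDH3A1 had 7.20, CDH1 4.79 and KRT19 4.94. Of these markers KRT19, CDH1, CEACAM6, ALDH3A1 and UGT1A6 were called absent on the A549-LV5 array and present on the A549-ZNF300 array. Whether the cells behind the arrays differ in more than ZNF300 was not tested, and every difference below rests on both arrays. Of 9 fibroblast markers 4 were detected, with a summed linear signal of 1614 in A549-ZNF300 and 352 in A549-LV5. Of these, COL1A1 had a difference of 2.55 and THY1 one of -0.83. The 2 detected probe sets of COL1A1 gave 0.40 to 2.55. The 3 of THY1 differed in sign, from -0.83 to 3.78. LUM (6.56) and COL3A1 (3.84) had 0.15 once their dim A549-LV5 signals were raised to the median. COL1A2, DCN, PDGFRA, PDGFRB and FAP were not detected. Of 7 immune and 5 endothelial markers, 4 and 1 were detected, and PTPRC and VWF were not. CD14 differed by 1.01 and ITGAM by -1.48. Of 10 alveolar type 2 markers 5 were detected, without NKX2-1. The part of these markers in the results was not tested. Fewer cells that make a transcript and less of it per cell cannot be told apart in RNA from whole cultures.

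The binding proteins were mostly higher in A549-ZNF300, and the 2 IGF receptors lay on opposite sides. Of the 10 genes, all of them detected, 6 were at least 2-fold higher in A549-ZNF300 (IGFBP2, IGFBP4, IGFBP5, IGFBP6, IGFBP7 and IGF1R), against 13.6% of the 13221 detected genes. IGF2R was the 1 member lower by 2-fold or more, against 15.4% of the detected genes. IGFBP1, IGFBP3 and IRS2 were within 2-fold. The median log2 difference of the 10 genes was 1.83, and that of all detected genes was -0.06. Together 7 of the 10 were 2-fold apart or more, against 29% of the detected genes. With dim signals lifted to the median of the array, 5 members were higher by 2-fold or more, against 10.3% of the detected genes, and 1 was lower by as much, against 12.1%. The median of the members was then 1.13. Of the 26 probe sets, 19 were detected, 10 of them higher by 2-fold or more and 3 lower by as much, against 13.6% and 15.4% of 25145 detected probe sets. Probe sets of the same gene are repeats: IGF1R gave 4 of the 10, and IGF2R all 3 that were lower. Among the 10, 211959_at of IGFBP5 and 243358_at of IGF1R were below the median in A549-LV5. They had 0.46 and 1.36 once raised to it. Among the 3, 1569052_at was below the median in A549-ZNF300, and had -1.76 once raised.

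**Figure D1:**
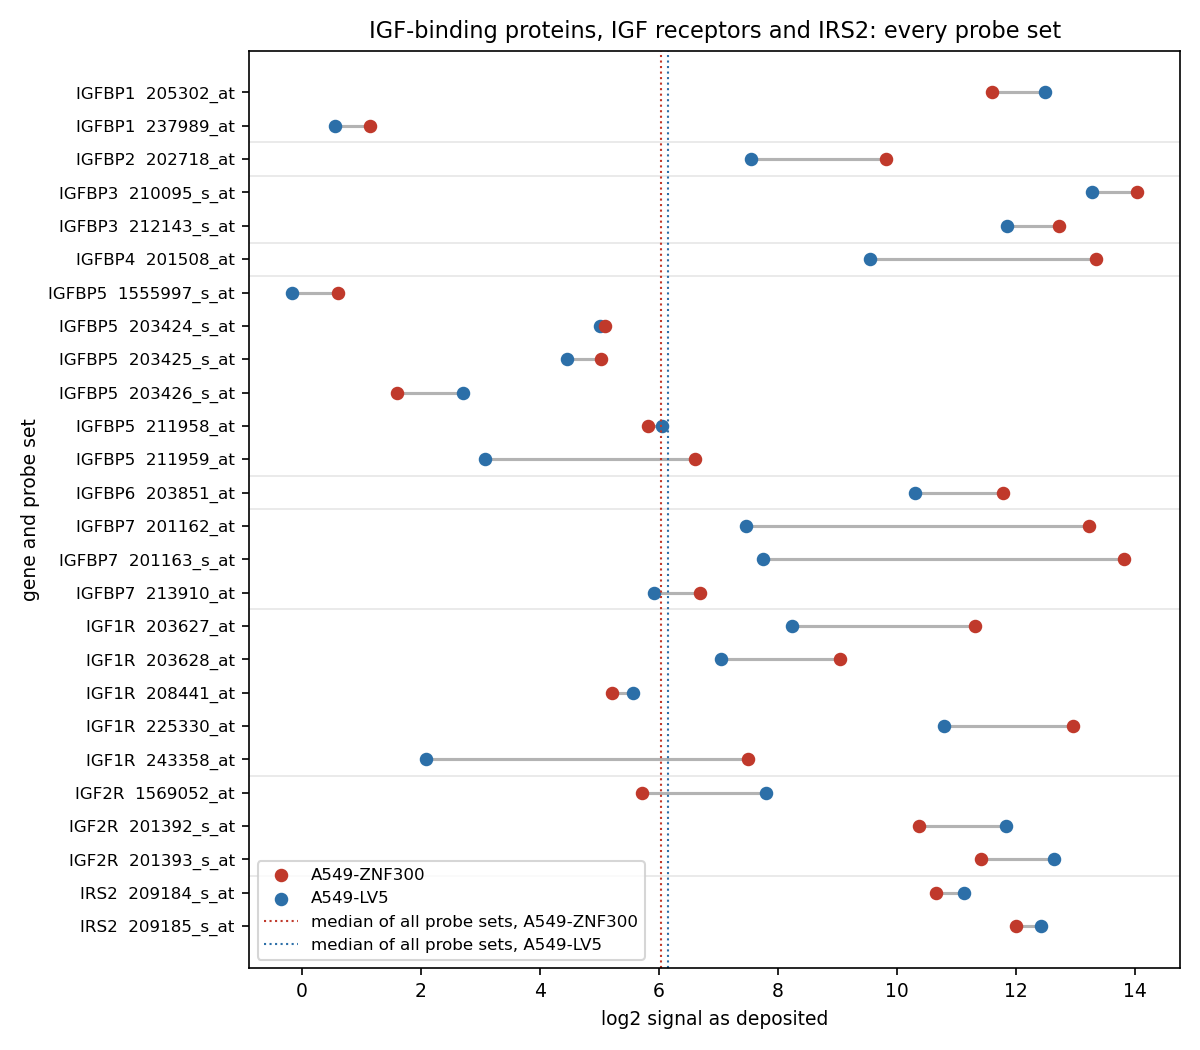
Deposited log2 signal (horizontal axis) of each of the 26 probe sets of the 10 genes, with A549-ZNF300 in red, A549-LV5 in blue and the median of each array as a dotted line. The widest gaps among probe sets above the median in both arrays are those of IGFBP7 and IGFBP4, and the probe sets of IGFBP5 lie near or below the medians.

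The 300 bases around the start of transcription (250 before it and 50 after) are shown for the 4 members that were at least 2-fold apart, above the median in both arrays and had 1 start in the table. They are from RefSeq, build GRCh38.p14, written from 5′ to 3′, and 8 of the 10 genes had an entry. IGFBP1 and IGFBP7 had none, so their promoters were not read. Capitals mark every match, on either strand, to TATAAA (the TATA box), GGGCGG (the GC box), CAAAACAA (part of the insulin response element that FOXO proteins bind), GTAAACA (a forkhead motif) or CACGTG (an E-box). Matches may overlap.
IGFBP4, chr17:40443200-40443499, plus strand: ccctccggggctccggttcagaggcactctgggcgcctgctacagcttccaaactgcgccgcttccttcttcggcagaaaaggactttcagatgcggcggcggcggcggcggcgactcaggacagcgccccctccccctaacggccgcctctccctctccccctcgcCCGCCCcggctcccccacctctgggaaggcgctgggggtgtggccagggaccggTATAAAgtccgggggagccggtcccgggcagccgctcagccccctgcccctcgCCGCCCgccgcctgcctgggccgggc
IGFBP6, chr12:53097417-53097716, plus strand: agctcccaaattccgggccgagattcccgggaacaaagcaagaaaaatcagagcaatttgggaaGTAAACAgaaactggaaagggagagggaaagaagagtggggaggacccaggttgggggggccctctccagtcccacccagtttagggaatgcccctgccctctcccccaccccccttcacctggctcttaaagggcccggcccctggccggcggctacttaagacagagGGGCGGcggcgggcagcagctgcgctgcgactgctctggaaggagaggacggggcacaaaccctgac
IGF1R, chr15:98648289-98648588, plus strand: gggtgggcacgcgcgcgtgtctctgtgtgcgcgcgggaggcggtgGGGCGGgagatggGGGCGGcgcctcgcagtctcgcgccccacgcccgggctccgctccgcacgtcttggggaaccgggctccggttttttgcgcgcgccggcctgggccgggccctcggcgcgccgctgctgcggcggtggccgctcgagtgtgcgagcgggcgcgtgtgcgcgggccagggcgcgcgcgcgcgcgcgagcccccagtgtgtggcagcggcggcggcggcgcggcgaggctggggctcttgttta
IGF2R, chr6:159968832-159969131, plus strand: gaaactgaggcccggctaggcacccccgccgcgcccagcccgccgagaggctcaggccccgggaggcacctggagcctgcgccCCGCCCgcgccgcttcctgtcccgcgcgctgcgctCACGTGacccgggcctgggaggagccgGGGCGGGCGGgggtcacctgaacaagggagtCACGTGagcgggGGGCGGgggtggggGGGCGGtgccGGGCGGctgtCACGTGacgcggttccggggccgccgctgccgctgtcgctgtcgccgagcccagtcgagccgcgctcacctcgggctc

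The promoter of IGFBP4 held 1 TATA box, which 11.5% of all 35116 promoters of this length hold, and 2 GC boxes, which 45.0% hold at least once. That of IGFBP6 held 1 GC box and 1 forkhead motif, found in 3.42% of promoters. The promoter of IGF1R held 2 GC boxes and 55 CpG dinucleotides, where the median promoter has 14. The promoter of IGF2R, the member that was lower, held 6 GC boxes, some of them overlapping, and 3 E-boxes, a motif present in 7.26% of promoters. Among members with an entry that are not shown, that of IRS2 held 1 match to CAAAACAA, found in 1.68% of promoters. A match describes the letters of this window and is not a bound site.

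IGFBP7 had the largest difference of the members. Its brightest probe set (201163_s_at) had 13.81 in A549-ZNF300 and 7.75 in A549-LV5, which is 66.5-fold higher and stands at percentile 99.5 of the differences of all detected genes. The second (201162_at) had 13.23 in A549-ZNF300 and 7.47 in A549-LV5, a difference of 5.76. It was called present in A549-ZNF300 and absent in A549-LV5. In A549-LV5 both probe sets lay within 2 log2 units of the array median, and in A549-ZNF300 they stood at its percentiles 99.0 and 98.3. The third (213910_at) lay near the median of each array, with 6.69 in A549-ZNF300 and 5.91 in A549-LV5, and its difference of 0.78 was far below the other two. The 3 detected genes nearest to IGFBP7 in the pair of signals, by Euclidean distance over the 2 arrays, were RSPO3, which encodes an activator of Wnt signalling (distance 0.72), the matrix proteoglycan gene VCAN (0.96) and MTUS1 (0.98).

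IGFBP4, whose product holds IGFs until a metalloprotease cuts it, followed. It was measured by 1 probe set (201508_at), with a log2 signal of 13.34 in A549-ZNF300 and 9.54 in A549-LV5, which is 13.9-fold higher. The call was present in both arrays, so this difference lies between signals that were both measured. IGFBP2, which is produced by many tumours and carries an integrin-binding motif, had 9.82 in A549-ZNF300 and 7.54 in A549-LV5. It was 4.85-fold higher, from 1 probe set called present in both arrays. IGFBP6, which prefers IGF2 to IGF1, had 11.78 in A549-ZNF300 and 10.30 in A549-LV5, 2.81-fold higher, also from 1 probe set. With IGFBP7, these genes make 4 of the 7 binding proteins that were at least 2-fold higher and at or above the median in both arrays. The same 4 were at least 2-fold higher with dim signals raised to the array medians, against 10.3% of all detected genes.

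IGFBP3 and IGFBP1 differed less. IGFBP3, the main carrier of IGFs in serum, had 14.04 in A549-ZNF300 and 13.28 in A549-LV5, a difference of 0.76. Its other probe set had 12.72 in A549-ZNF300 and 11.84 in A549-LV5, a difference of 0.87. Both were higher in A549-ZNF300 and both below 2-fold. IGFBP1, a binding protein of liver and decidua that insulin represses, had 11.60 in A549-ZNF300 and 12.49 in A549-LV5, which is 1.85-fold lower. Its second probe set was among the dimmest of both arrays, at 1.14 in A549-ZNF300 and 0.56 in A549-LV5. IGFBP1 and IGFBP3 are neighbours on chromosome 7 in RefSeq (GRCh38.p14), and their differences had opposite signs.

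IGFBP5, a binding protein tied to extracellular matrix, was barely detected. Of its 6 probe sets, 5 were below the median in both arrays, with 0.60 to 5.81 in A549-ZNF300 and -0.17 to 6.04 in A549-LV5. The other (211959_at) had 6.60 in A549-ZNF300, where the call was marginal, and 3.08 in A549-LV5, where it was absent. Its difference of 3.52 was 0.46 once the A549-LV5 signal was raised to the array median, and the brightest of its undetected probe sets had -0.23. The count of members at least 2-fold higher was 5 without IGFBP5. IGFBP2, its neighbour on chromosome 2, was above the medians in both arrays.

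**Figure D2:**
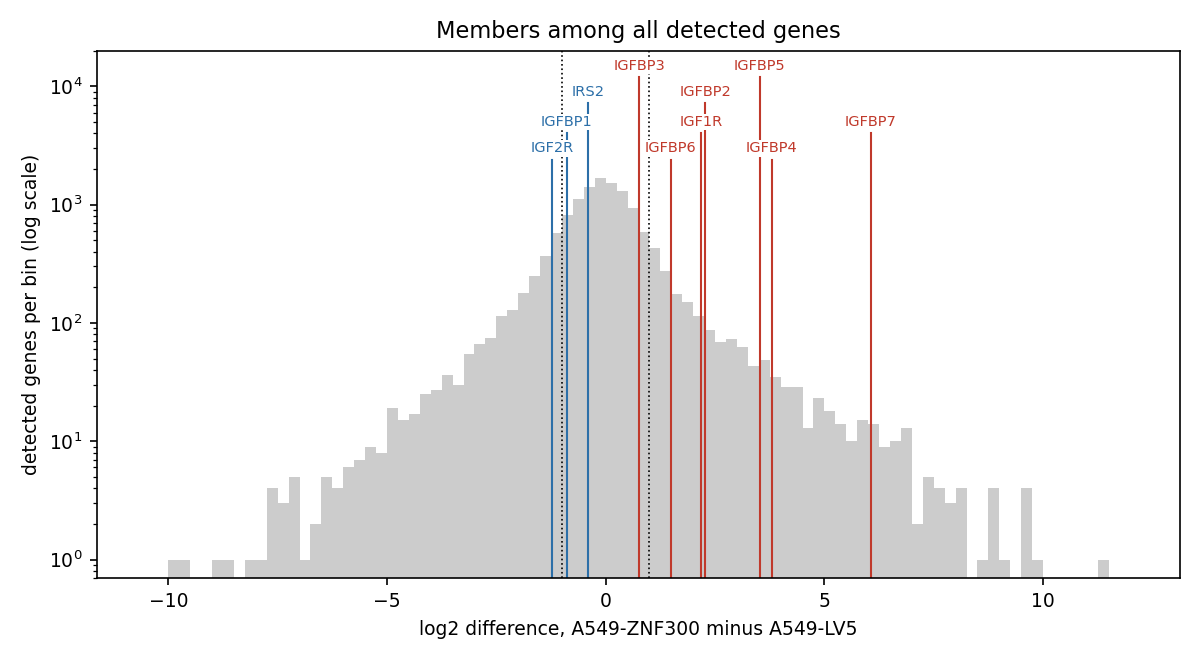
Histogram of the log2 difference (horizontal axis) of the 13221 detected genes in bins of 0.25, with the number of genes on a log scale (vertical axis) and the 10 members as lines, red where higher and blue where lower in A549-ZNF300. IGFBP7 stands at 6.05 and IGF2R at -1.22, and dotted lines mark 2-fold.

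IGF1R, the signalling receptor, was higher in A549-ZNF300 in all 4 of its detected probe sets. The brightest (225330_at) had 12.96 in A549-ZNF300 and 10.78 in A549-LV5, which is 4.51-fold higher. The second (203627_at) had 11.30 in A549-ZNF300 and 8.23 in A549-LV5, a difference of 3.07. The third (203628_at) had 9.03 in A549-ZNF300 and 7.03 in A549-LV5, where it was called absent. The fourth (243358_at), dim in A549-LV5, had 7.50 in A549-ZNF300 and 2.09 in A549-LV5, and its difference of 5.41 was 1.36 once the A549-LV5 signal was raised to the median. The undetected probe set (208441_at) differed by -0.36. The detected probe sets thus had the same sign and unlike sizes.

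IGF2R was lower in A549-ZNF300 in all 3 of its probe sets. The brightest (201393_s_at) had 11.41 in A549-ZNF300 and 12.63 in A549-LV5, which is 2.33-fold lower. The next (201392_s_at) had 10.36 in A549-ZNF300 and 11.83 in A549-LV5, a difference of -1.47. The dimmest (1569052_at) had 5.71 in A549-ZNF300 and 7.79 in A549-LV5, a difference of -2.09. IGF2R lies on chromosome 6, where the median difference of 708 detected genes was -0.52 and 26.6% were higher in A549-ZNF300, against a median of -0.06 and 6167 positive differences among all 13221 detected genes. The 20 detected genes nearest to it, 10 on each side, had a median of -0.39, and 6 of them were at least 2-fold lower, against 15.4% of all detected genes. What part this has in the value of IGF2R was not tested. For the other members, the median of the 20 nearest genes lay between -0.09 at IGFBP6 and 0.43 at IGFBP4. Of these 20, 7 were at least 2-fold higher at IGFBP2 and at IGFBP6, and 6 at IGFBP4 and at IGFBP5. There were 4 at IGF1R, 3 at IGFBP7 and 2 at each of IGFBP1, IGFBP3 and IRS2, against 13.6% of all detected genes. Between 1 and 3 were lower by as much at each of these members. What part this has in their values was not tested either. The 3 detected genes nearest to IGF2R in the pair of signals were PHLDA2 (distance 0.039), the actin-bundling gene PLS1 (0.040) and WSB1 (0.059).

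The closest relatives of these genes were read beside them, the insulin receptor and IRS1. INSR, the insulin receptor and closest relative of IGF1R, had 8.22 in A549-ZNF300 and 9.88 in A549-LV5, which is 3.16-fold lower. Its 5 detected probe sets all had negative differences, between -2.13 and -0.42. The 20 detected genes nearest to INSR on chromosome 19 had a median of -0.47. None of them was at least 2-fold higher and 4 were lower by as much, against 13.6% and 15.4% of all detected genes. What part this has in the value of INSR was not tested. IRS1 had 12.06 in A549-ZNF300 and 9.50 in A549-LV5, 5.88-fold higher, and its 3 probe sets gave 2.56 to 3.20. IRS2 was within 2-fold, with 12.01 in A549-ZNF300 and 12.41 in A549-LV5 for its brighter probe set, and 10.66 in A549-ZNF300 and 11.12 in A549-LV5 for the other. The probe sets of IGF1R and IRS1 that were detected were thus all higher in A549-ZNF300, and those of INSR, IGF2R and IRS2 were all lower.

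**Figure D3:**
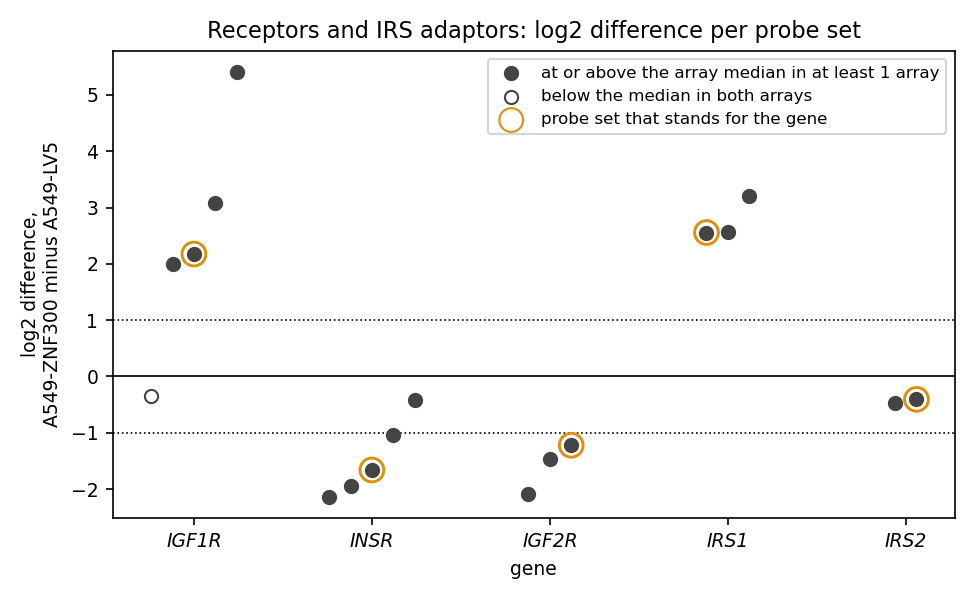
Log2 difference (vertical axis) of each probe set of the 3 receptors and the 2 IRS adaptors, filled where detected and ringed where it stands for the gene, with dotted lines at 2-fold. Detected probe sets of IGF1R and IRS1 lie at 2.0 (rounded) or above, and those of INSR, IGF2R and IRS2 lie below 0.

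The rest of the IGF pathway was taken from lists chosen with earlier results of these data known. Of 21 detected receptors, adaptors and regulators of the insulin type, 2 were higher by 2-fold or more and 8 lower by as much, with a median of -0.78, where 13.6% and 15.4% of all detected genes were so and their median was -0.06. Taken over all detected probe sets of each gene, the median of this list was -0.23. Besides IRS1, GRB10, an adaptor that restrains these receptors, was higher (1.05). Its 4 detected probe sets gave 0.55 to 1.05, and only the brightest reached 2-fold. Besides INSR, the adaptor gene SHC3 was lower, with 6.75 in A549-ZNF300 and 10.67 in A549-LV5. SOCS3, a feedback inhibitor that targets IRS proteins, was also lower, with 9.14 in A549-ZNF300 and 11.50 in A549-LV5. Of 34 detected genes of the PI3K, AKT and mTOR pathway, 3 were higher by 2-fold or more and 4 lower by as much, with a median of 0.02. The translation repressor gene EIF4EBP2 (1.77) and AKT2 (1.10) were higher, but the 6 detected probe sets of AKT2 differed in sign, the lowest at -0.70. The 3 detected probe sets of EIF4EBP2 gave 0.20 to 1.77. INPP5D (1.13) was dim in A549-LV5, with -0.07 once its signals were raised to the medians. PIK3IP1, which encodes an inhibitor of PI3K (-2.50, or -1.09 against the median of A549-ZNF300, where it was dim), the kinase gene SGK1 (-2.49) and PIK3CD (-1.33) were lower. SGK1 was bright in both arrays, with 12.27 in A549-ZNF300 and 14.76 in A549-LV5.

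Of 9 genes for IGF and insulin-type ligands or their carrier with a probe set, 4 were detected. The brightest probe set of IGF1 had 6.42 in A549-ZNF300 and 6.22 in A549-LV5, both just above the medians. The 3 probe sets of IGF2 are also annotated to INS-IGF2, and the brightest had 8.15 in A549-ZNF300 and 7.30 in A549-LV5. INSL4, an insulin-like peptide of the placenta, had 10.29 in A549-ZNF300 and 2.74 in A549-LV5, a difference of 7.55, or 4.15 against the median of A549-LV5.

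Genes that cut binding proteins, or restrain the cutting, differed in both directions. Of 21 detected, 10 were higher by 2-fold or more and 6 lower by as much, with a median of 0.04, against 13.6%, 15.4% and -0.06 for all detected genes. With dim signals raised to the medians 8 were higher and 6 lower, against 10.3% and 12.1% of all detected genes. Without _x_at and _s_at probe sets the median was 1.11. PAPPA, which encodes the metalloprotease that cleaves IGFBP4, had 13.73 in A549-ZNF300 and 10.70 in A549-LV5, which is 8.16-fold higher. Its 8 detected probe sets gave 1.46 to 3.38. Both genes for stanniocalcins, secreted inhibitors of this protease, were lower. STC2 had 8.62 in A549-ZNF300 and 12.09 in A549-LV5, 11.1-fold lower, and STC1 had 10.28 in A549-ZNF300 and 13.33 in A549-LV5, 8.31-fold lower. By the probe set that stands for each gene, the protease, its substrate IGFBP4 and its inhibitors were thus each more than 8-fold apart. The inhibitors lay on the other side from the protease. Some detected probe sets were less far apart, down to 1.46 for PAPPA and -2.79 for STC1. MMP7, a protease that cleaves several binding proteins, had a difference of 6.90, or 4.85 against the median of A549-LV5, where it was dim. C1R, which encodes a complement protease, was higher (1.99), and PLAU, which encodes urokinase, was lower (-1.90).

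Of 10 detected relatives of the binding proteins, 5 were higher by 2-fold or more and 2 lower by as much, with a median of 0.72, against 13.6%, 15.4% and -0.06 for all detected genes. With dim signals raised to the medians, 3 were higher and 1 lower, against 10.3% and 12.1% of all detected genes, and the median was 0.15. IGFBPL1 (5.78, or 1.91 against the median of A549-LV5) and CCN5 (3.12) were higher. In A549-LV5, CCN5 had 6.32, just above the median, and was called absent. CCN4 (3.90) was dim in A549-LV5, with 0.08 once raised to the median. CCN1, a matrix protein induced by growth factors, was lower (-1.69), with 12.12 in A549-ZNF300 and 13.80 in A549-LV5. ESM1 (-1.02) was dim in A549-ZNF300.

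**Figure D4:**
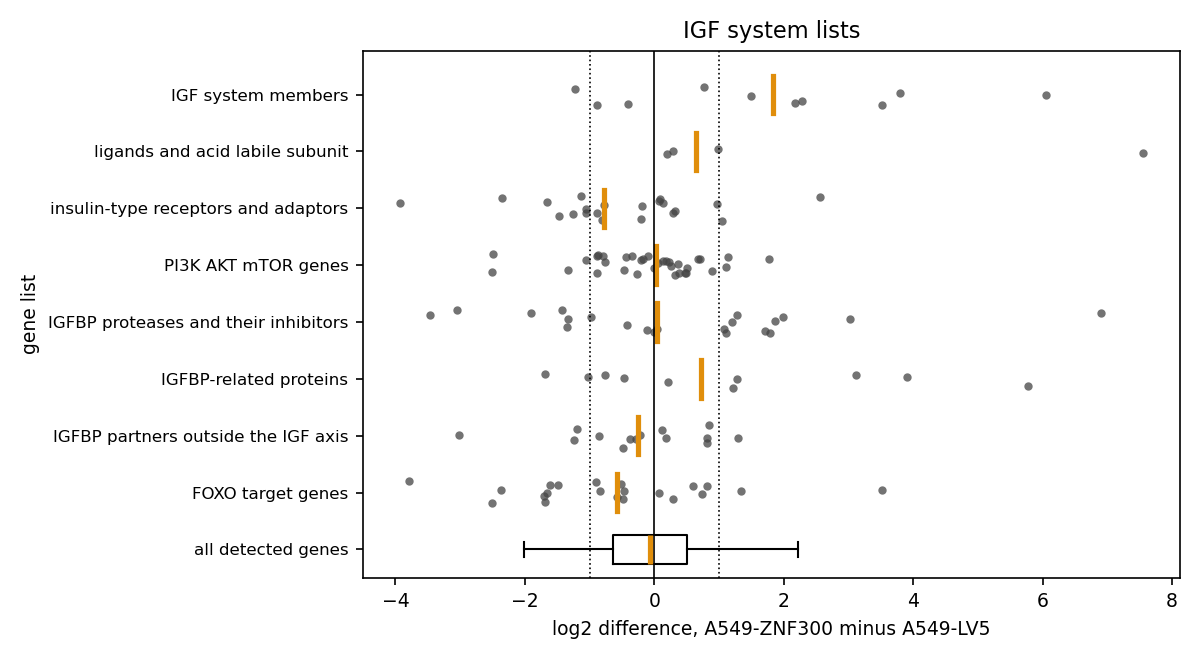
Log2 difference (horizontal axis) of each detected gene of the 10 members and 7 further lists, with the median of each list in orange, and below them all detected genes as a box with whiskers at the 5th and 95th percentiles. The members have a median of 1.83 and the insulin-type receptors and adaptors one of -0.78 (-0.23 with the median over the probe sets of each gene).

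The differences of IGFBP5 and IGF2R moved most with the processing. Over 11 settings of normalization, filter and probe set choice, IGFBP7 lay between 5.76 and 6.16, IGFBP4 between 3.77 and 3.91, IGF1R between 2.16 and 2.62 and IGF2R between -2.09 and -1.11. The value of -2.09 for IGF2R comes from leaving out _x_at and _s_at probe sets, which leaves its dimmest probe set. IGFBP5 had -0.23 when dim probe sets were kept. These settings are not replicates, since all of them start from the same pair of arrays.

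**Figure D5:**
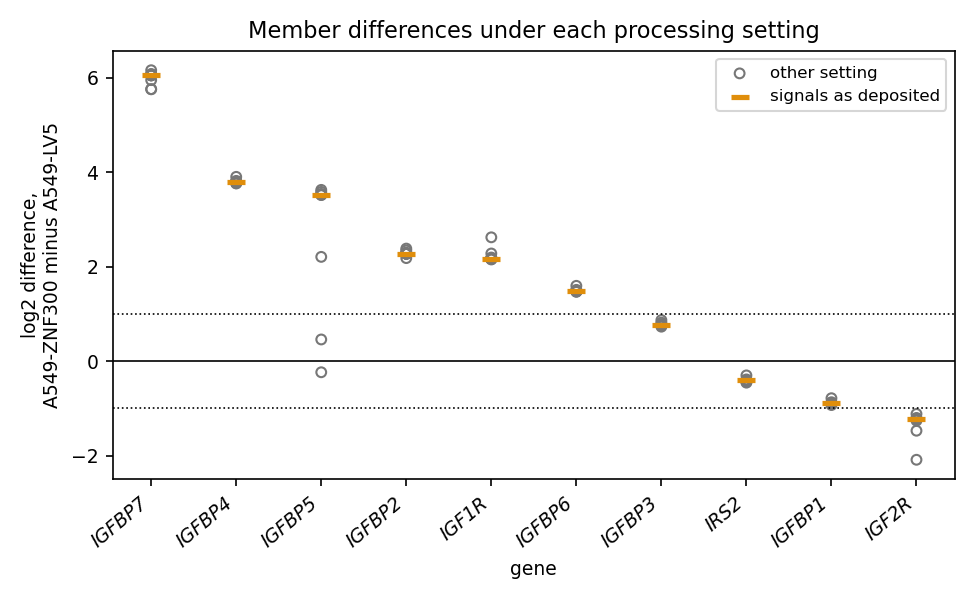
Log2 difference (vertical axis) of each member with the signals as deposited (orange bars) and under the other settings (circles), with dotted lines at 2-fold. IGFBP5 spreads from -0.23 to 3.63, while IGFBP7 stays between 5.76 and 6.16.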

How the data were processed

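Total RNA of A549-ZNF300 and A549-LV5 cells was hybridized to 1 Affymetrix U133 Plus 2.0 array each. The deposited values are log2 signals of 54675 probe sets, already normalized by the authors. The submitters' processing notes name MAS5 and affy without versions, the study's methods name SCAN/UPC, and which of these made the signals is not given in the sources used here. A second deposited table of 8187 probe sets holds the same signals, detection calls, which were used, and the authors' fold changes, which were not used. It holds calls for 13 member probe sets, all at least 2-fold apart.

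Probe sets were named by the array annotation: 41097 have 1 gene, 1801 several and 11777 none, and no symbol changed when updated through RefSeq (GRCh38.p14). Signals were used as deposited, with Python 3.11.15 and pandas 2.3.3. With 1 array per condition, genes at least 2-fold apart were counted and no test was run. The counting code was run on simulated data with planted changes above 2-fold and noise smaller than the spread between probe sets of a gene. That run does not measure how reliable a 2-fold difference from 1 array per condition is. The members and lists were chosen with earlier results of these data known. The text names all members, defining markers of cell types, and in each pathway list up to 3 genes per direction with the largest differences of at least 2-fold. Alternatives were centring on array medians or 8 housekeeping genes, quantile normalization, no filter, a filter at the 75th percentile or in both arrays, the median over probe sets, no _x_at or _s_at probe sets, an offset of 16 on linear signals, dim signals raised to the median, and folds of 1.5 and 3.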

Additional observations from a re-analysis of the deposited data

How the results depend on the processing

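The number of members higher by the fold used was 5 or 6 under the settings run, except 7 at 1.5-fold. The number lower was 1, except 2 at 1.5-fold and 0 at 3-fold. Among all 13221 detected genes, the counts higher and lower were 2976 and 3508 at 1.5-fold, and 1010 and 1003 at 3-fold. Without a filter they were 3358 and 3862 of 19775 genes. They were 1000 and 1073 at the 75th percentile, and 1042 and 1294 with the median in both arrays. These 2 filters leave fewer genes to count, and their totals are not given here, so the member counts under them have no share beside them. With the array medians as centre, 53.3% of the genes at least 2-fold apart were higher, against 46.8% as deposited, and the median of all genes was 0.04. IGFBP5 was reversed without a filter (-0.23) and under 2-fold with dim signals raised to the median (0.46), and INSR was at -0.42 without _x_at and _s_at probe sets. Without these probe sets the median was 1.11 for the proteases and their inhibitors, 2.20 for the relatives of binding proteins and 3.92 for the ligands. The median of the relatives was 0.063 without a filter, 0.22 with the median in both arrays and 0.15 with dim signals raised, and that of the ligands was 7.55 at the 75th percentile, 0.25 with the median in both arrays and 0.28 with dim signals raised. IGFBP5 had no detected probe set with the filter at the 75th percentile or in both arrays, and IGFBP3 and IRS2 have only _s_at probe sets, so these settings gave them no value. The median of the insulin-type receptors and adaptors was -0.23 over all probe sets. No paired analysis was possible because each condition has 1 array, which also leaves signals near the array median without a measure of error.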

Other observations

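Targets of FOXO transcription factors, which insulin and IGF signalling holds out of the nucleus, were described beside the members. Of 21 detected, 2 were higher in A549-ZNF300 by 2-fold or more and 8 lower by as much, with a median log2 difference of -0.58, against 13.6%, 15.4% and -0.06 for all detected genes. INSR and PIK3IP1 are among them and were given above. KLF15 (-3.79, or -1.36 against the median of A549-ZNF300, where it was dim) and KLF6 (-2.37) were lower. PDK4, a kinase gene that shuts down pyruvate oxidation, had 12.28 in A549-ZNF300 and 8.75 in A549-LV5, which is 11.5-fold higher. SESN3 was higher (1.34, or 1.27 against the median of A549-LV5, where it was dim), with 1 of its 7 probe sets detected.

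Of 14 detected genes for partners of binding proteins outside the IGF axis, 1 was higher by 2-fold or more and 3 lower by as much. Their median was -0.25. Of all detected genes, 13.6% were higher and 15.4% lower by as much, with a median of -0.06. The nuclear receptor gene RXRA was higher by its brighter probe set (1.29), while the other gave -0.75. The integrin genes ITGB3 (-3.01) and ITGA5 (-1.19), which encodes a subunit of the fibronectin receptor, and the chaperone gene HSPA5 (-1.24) were lower.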
